A study of Homo sapiens with 6 samples.

Results

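The 9 genes described here are IL1 family cytokines and receptors: the ligands IL1A, IL1B, IL18 and IL33, the receptor antagonist IL1RN, the receptors IL1R1 and IL1R2, the co-receptor IL1RAP, and CASP1, the protease that activates IL1B and IL18. They were chosen by gene symbol, and all 9 were found among the 60725 rows of each expression table. The tables came from 6 RNA sequencing libraries of tumours grown as xenografts in host animals from MHCC97L, an established human hepatocellular carcinoma line. The Ctrl group, 3 libraries with no recombinant lumican, was compared with the rhLUM group, 3 libraries from tumours treated with recombinant human lumican, a secreted proteoglycan of the extracellular matrix. The sources used here do not give the host's strain, genotype or age, what the Ctrl tumours received, or the dose, route and duration of rhLUM. Every library comes from this single tumour line. Whether libraries A, B and C of a group are separate tumours is not stated, so each p-value reflects the spread among these libraries alone, which could be technical.

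The IL1 pathway starts inflammation. IL1A and IL1B bind the receptor IL1R1, which then recruits IL1RAP, and the adaptor MYD88 with IRAK kinases and TRAF6 passes the signal to NF-kB and MAP kinases. IL1RN occupies the same receptor without signalling, and IL1R2 is a decoy that binds IL1 but lacks the signalling domain. IL1B and IL18 are made as inactive precursors that CASP1 cuts within inflammasomes, whereas IL1A is active uncut and IL33 is an alarm signal released from damaged cells. In liver tissue IL1 is known for inducing acute-phase proteins and chemokines.

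With rhLUM the transcripts of both IL1 agonists were far lower, IL1B by 34.1-fold and IL1A by 12.9-fold, and that of CASP1 was 7.22-fold lower. The antagonist IL1RN fell by much less, and IL18 was the sole member that rose. The receptors IL1R1, IL1R2 and IL1RAP did not pass the test as deposited. IL33 was near 0 in all libraries. Of the 8 members tested, 4 fell (IL1A, IL1B, IL1RN and CASP1), 1 rose (IL18) and 3 were not called. CASP1 reached the mean of 1 TPM needed for testing only through its Ctrl values. Where all 6 libraries had to reach 1 TPM, 3 members were lower, beside 2877 of the 12945 genes then tested. Over all 14781 genes tested 66.8% were called in either direction, 22.3% lower and 44.5% higher (limma, adjusted p under 0.05), so a call by itself is common here. The groups did not overlap for 5 of the 8 members, the 5 that were called, and for 71.4% of all genes tested. The median log2 fold change of the 8 members was -0.29, beside 0.16 over all genes tested.

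Levels are in TPM, a unit that takes out transcript length and gives every library the same total, so that genes can be set side by side. The depth of the libraries is unknown because TPM does not keep it. Fold changes on the log2 scale are of TPM + 1, rhLUM minus Ctrl, and understate the change of low genes. A gene was tested where its mean over the 6 libraries reached 1 TPM, which left out IL33. Because so many genes rose a little, values after median-of-ratios scaling are also given where they change a call. This scaling shifted the median log2 fold change of all genes by -0.18 and called 32.5% of genes higher and 32.6% lower. Higher genes made up 66.6% of all calls as deposited and 49.98% after that scaling. In bulk tumour RNA, fewer cells of a type and less RNA per cell cannot be told apart.

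**Figure D1:**
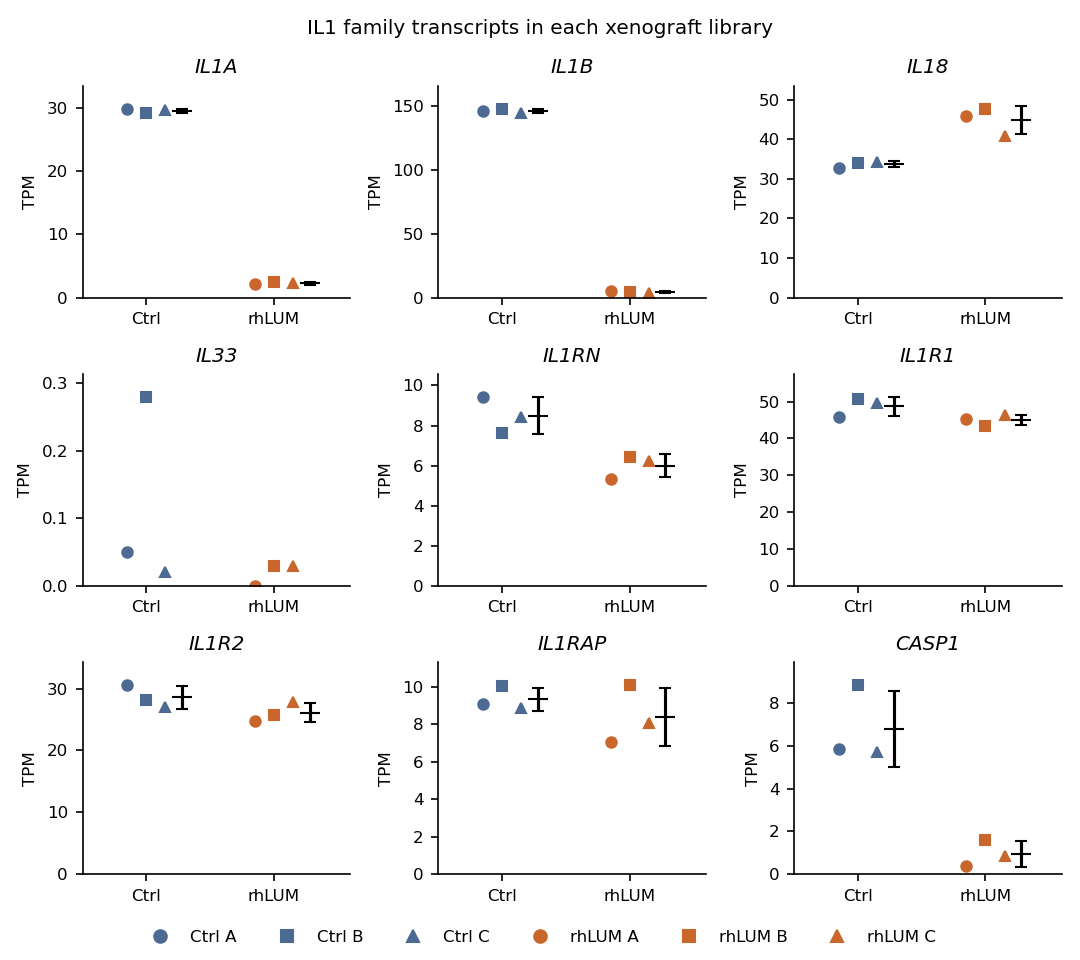
TPM of each of the 9 members (vertical axis, linear, from 0, with its own range in each panel) in the 3 Ctrl and 3 rhLUM libraries, a point per library, with the group mean and SD as black bars except for IL33, which is near 0. IL1A, IL1B and CASP1 show the widest gaps between the groups, while the points of IL1R1, IL1R2 and IL1RAP overlap.

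The bases before the start of IL1B and a start of IL1A, the members that fell most, are shown. Those before a start of IL1RN, their neighbour that fell least among the called members, are shown too. RefSeq (GRCh38.p14) held promoters of 7 of the 9 members. The stretches are on the gene's strand, end where GENCODE release 29 annotates an exon, and carry matched motifs in capitals.
IL1B, chr2:112836904-112837029, minus strand: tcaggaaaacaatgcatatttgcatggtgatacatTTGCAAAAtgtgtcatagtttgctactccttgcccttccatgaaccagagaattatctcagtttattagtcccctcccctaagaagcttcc
IL1A, chr2:112784591-112784743, minus strand: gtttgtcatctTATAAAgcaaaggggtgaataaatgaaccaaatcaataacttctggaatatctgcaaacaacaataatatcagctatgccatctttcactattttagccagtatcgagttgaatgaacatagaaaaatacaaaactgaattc
IL1RN, chr2:113127348-113127560, plus strand: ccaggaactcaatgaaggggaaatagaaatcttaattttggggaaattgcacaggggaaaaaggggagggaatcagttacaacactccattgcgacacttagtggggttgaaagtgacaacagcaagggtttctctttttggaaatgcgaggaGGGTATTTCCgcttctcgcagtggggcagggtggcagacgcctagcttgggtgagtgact
Motifs were searched on both strands of the 250 bases before each start. The capitals before IL1B are a C/EBP motif (TTGCNNAA) 215 to 208 bases before the start. Those before IL1A are a TATA motif (TATAAA) 239 to 234 bases before it, and an AP-1 motif (TGANTCA) lies 12 to 6 bases before the same start, beyond the stretch shown. Those before IL1RN are an NF-kB motif (GGG, 5 bases of any kind, then CC), GGGTATTTCC, 97 to 88 bases before the start. Of 35116 RefSeq promoter windows of this length, 54.4% held the NF-kB letters, 6.57% the AP-1, 9.05% the C/EBP and 10.7% the TATA letters. Before IL1RN, TATA matches on both strands overlap each other 32 to 25 bases before the start, beyond the stretch shown, and no other matches in these 3 windows overlap. IL1A has 2 listed starts and IL1RN 3, and the windows not shown differed in their matches. The other IL1A window overlaps the one shown and held 2 AP-1 matches and 0 TATA matches. Of these AP-1 matches, TGACTCA, 105 to 99 bases before the other start, is the same site as the one named above. The second, TGAGTCA, lies 55 to 49 bases before that other start. For IL1RN, a window not shown held 3 NF-kB matches and 1 AP-1 match, and another held none. The matches describe letters only.

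IL1B encodes the main secreted IL1 agonist and lies on chromosome 2 at 112829751 to 112836903 (GRCh38, GENCODE release 29, minus strand, protein coding). It stood at 146.33, 148.21 and 145.06 TPM in Ctrl A, B and C and at 4.93, 4.14 and 3.83 TPM in rhLUM A, B and C. All 3 Ctrl libraries were high within a few TPM of each other, all 3 rhLUM libraries were low, and the groups did not overlap. The mean went from 146.5 ± 1.58 to 4.30 ± 0.57 TPM (SD, n = 3), a log2 fold change of -4.80 (SE 0.08, limma adjusted p = 2.77e-08). Only 8 of the 14781 tested genes, IL1B included, had a change at or below that value. In rank of mean TPM among rows with their own symbol, IL1B was number 825 in Ctrl and number 11041 in rhLUM.

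IL1A, the other agonist, which can act inside the cell, at its surface or after release, lies on chromosome 2 at 112773915 to 112784590 (minus strand). Its level was 29.86, 29.23 and 29.61 TPM in the Ctrl libraries and 2.08, 2.50 and 2.27 TPM in the rhLUM libraries. Here too the groups were far apart and tight. The mean fell from 29.6 ± 0.32 to 2.28 ± 0.21 TPM (SD, n = 3), a log2 fold change of -3.22 (SE 0.07, limma adjusted p = 8.39e-08). Of all tested genes, 35 had a log2 fold change at or below that of IL1A, itself included.

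IL18, the ligand that drives interferon-gamma production in lymphocytes, lies on chromosome 11 at 112143251 to 112164117 (minus strand) and is the other substrate of CASP1 in the family. It measured 32.88, 33.99 and 34.34 TPM in Ctrl and 45.97, 47.76 and 40.90 TPM in rhLUM. The lowest rhLUM library, C, still lay above the highest Ctrl library. The mean rose from 33.7 ± 0.76 to 44.9 ± 3.56 TPM (SD, n = 3), or 1.33-fold, with a log2 fold change of 0.40 (SE 0.06, limma adjusted p = 8.72e-04). Of the 14781 tested genes, 4933, IL18 included, had a log2 fold change at or above that of IL18. The rise of IL18 depended in size on the scaling. It was 0.20 after median-of-ratios scaling (limma adjusted p = 0.0230) and 0.16 after upper quartile scaling, under which the call was lost (limma adjusted p = 0.0514). The gene AP002884.3 overlaps IL18 on the opposite strand, and their reads cannot be told apart without strand.

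IL33, on chromosome 9 at 6215786 to 6257983 (plus strand), had values of 0.05, 0.28 and 0.02 TPM in the Ctrl libraries and 0, 0.03 and 0.03 TPM in the rhLUM libraries. These values are near 0 in both groups and were not tested.

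Together the 4 ligands summed to 209.12, 211.71 and 209.03 TPM in Ctrl and to 52.98, 54.43 and 47.03 TPM in rhLUM. IL1B made up 69.8 ± 0.34% of this sum in Ctrl and 8.35 ± 0.87% in rhLUM, and IL18 made up 16.1 ± 0.35% and 87.2 ± 0.52% (SD, n = 3). The most abundant ligand transcript of the family was thus IL1B in every Ctrl library and IL18 in every rhLUM library.

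The antagonist gene IL1RN lies on chromosome 2 at 113107214 to 113134016 (plus strand). It was at 9.43, 7.61 and 8.43 TPM in Ctrl and 5.35, 6.41 and 6.25 TPM in rhLUM. The groups did not overlap, though the gap between the lowest Ctrl and the highest rhLUM library was small beside that of the agonists. The mean fell from 8.49 ± 0.91 to 6.00 ± 0.57 TPM (SD, n = 3), a log2 fold change of -0.44 (SE 0.10, limma adjusted p = 0.00609). A change at or below that value was held by 2389 tested genes, IL1RN included.

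Agonist and antagonist transcripts were set against each other within each library, as a quotient of TPM that does not depend on how libraries are scaled. The quotient of IL1B to IL1RN was 15.5, 19.5 and 17.2 in Ctrl and 0.92, 0.65 and 0.61 in rhLUM. IL1B thus exceeded its antagonist in every Ctrl library and lay below it in every rhLUM library. The quotient of IL1A to IL1RN went from 3.51 ± 0.34 to 0.38 ± 0.015 (SD, n = 3), again on opposite sides of 1. IL1B fell more than IL1A, so the quotient of IL1B to IL1A went from 4.96 ± 0.10 to 1.90 ± 0.40 (SD, n = 3). On the log2 scale of TPM + 1 these 3 ratios changed by -4.37, -2.78 and -1.58. Unlike the plain quotients, these changes depend on the value added and so on the scale. With 0.1 added in place of 1 they were -4.57, -3.15 and -1.42. Each gave p = 0.1 in a two-sided exact permutation test over libraries, the smallest that 3 against 3 allows (adjusted p = 0.125 over 5 ratios), with all 3 rhLUM libraries below all 3 Ctrl libraries. That test therefore cannot bring a ratio under 0.05.

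**Figure D2:**
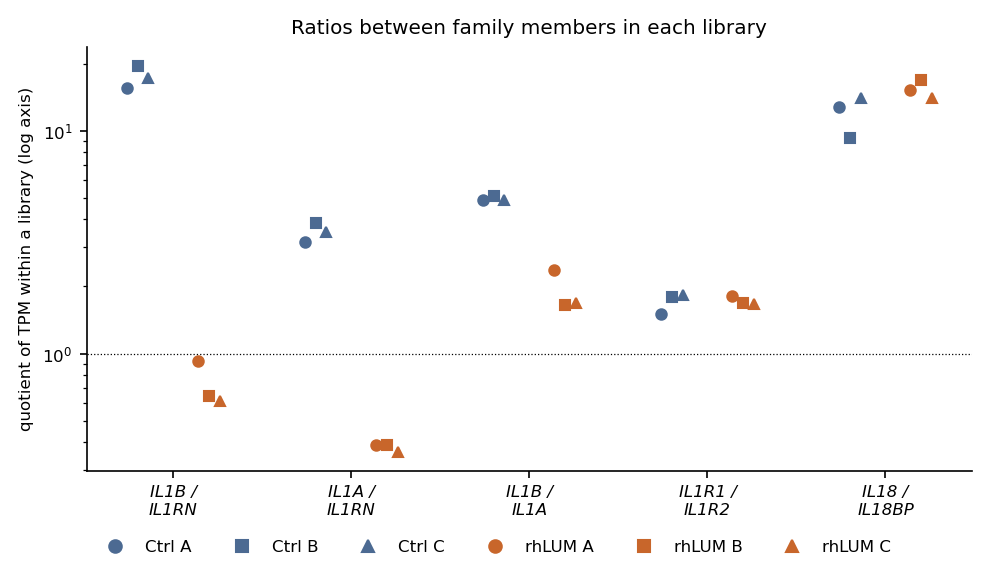
Quotient of the TPM of 2 genes within each library (vertical axis, log scale) for 5 pairs, with blue points for Ctrl and orange for rhLUM and a dotted line at equal levels. The quotients of IL1B and IL1A to IL1RN lie above 1 in Ctrl and below 1 in rhLUM, while IL1R1 to IL1R2 overlaps between groups.

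The signalling receptor IL1R1 lies on chromosome 2 at 102064544 to 102179874 (plus strand). It was at 45.85, 50.66 and 49.70 TPM in Ctrl and 45.15, 43.43 and 46.31 TPM in rhLUM. The groups overlapped, since rhLUM C lay above Ctrl A. The log2 fold change was -0.11 (95% interval -0.23 to 0.0026, limma adjusted p = 0.0770). Without Ctrl A it was -0.16 and passed (limma adjusted p = 0.0240). After median-of-ratios scaling it was -0.31 and passed as lower (limma adjusted p = 8.89e-04). IL1R1-AS1, an antisense gene, overlaps it, and whether counting used strand is not given.

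The decoy receptor IL1R2, on chromosome 2 at 101991844 to 102028544 (plus strand), measured 30.58, 28.11 and 27.06 TPM in Ctrl and 24.79, 25.80 and 27.80 TPM in rhLUM. The groups overlapped by rhLUM C. Its log2 fold change was -0.12 (95% interval -0.27 to 0.025, limma adjusted p = 0.121). It was -0.08 without Ctrl A, -0.09 without rhLUM A and -0.17 without rhLUM C, and -0.32 after median-of-ratios scaling, when it passed as lower (limma adjusted p = 0.00364). The quotient of IL1R1 to IL1R2 averaged 1.71 ± 0.19 in the Ctrl libraries and 1.72 ± 0.085 in the rhLUM libraries (SD, n = 3). Its change of 0.01 on the log2 scale had p = 0.9 in the exact permutation test (adjusted p = 0.9 over 5 ratios). Its sign turned on leaving out Ctrl A or rhLUM A, to -0.08 and -0.03.

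IL1RAP, the co-receptor that both IL1 and IL33 receptors need, lies on chromosome 3 at 190514051 to 190659750 (plus strand). It was at 9.07, 10.05 and 8.87 TPM in Ctrl and 7.04, 10.10 and 8.08 TPM in rhLUM, where library B was the highest of all 6. The log2 fold change was -0.15 (95% interval -0.43 to 0.14, limma adjusted p = 0.320). Without rhLUM B it was -0.27 and passed (limma adjusted p = 0.0404). After median-of-ratios scaling it was -0.32, with an interval of -0.61 to -0.04 and an adjusted p just past the threshold (limma adjusted p = 0.0502). In both groups the receptor transcripts stood in the order IL1R1, IL1R2, IL1RAP, and no library of a receptor overlapped with those of the next.

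CASP1, on chromosome 11 at 105025443 to 105035250 (minus strand), encodes caspase-1. It was at 5.84, 8.84 and 5.69 TPM in Ctrl and 0.38, 1.61 and 0.83 TPM in rhLUM. Library B was the highest of each group, and the groups did not overlap. The mean fell from 6.79 ± 1.78 to 0.94 ± 0.62 TPM (SD, n = 3), a log2 fold change of -2.03 (SE 0.26, limma adjusted p = 3.45e-04). Its rhLUM mean lay under 1 TPM, so CASP1 passed the filter only through its Ctrl values. The relative spread of CASP1 was the widest of the members tested. CARD16 and CARD17 are near copies of its first part and can share its reads. With their rows added to that of CASP1, an alternative chosen after seeing the data, the log2 fold change was -1.56 (limma adjusted p = 3.95e-05).

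**Figure D3:**
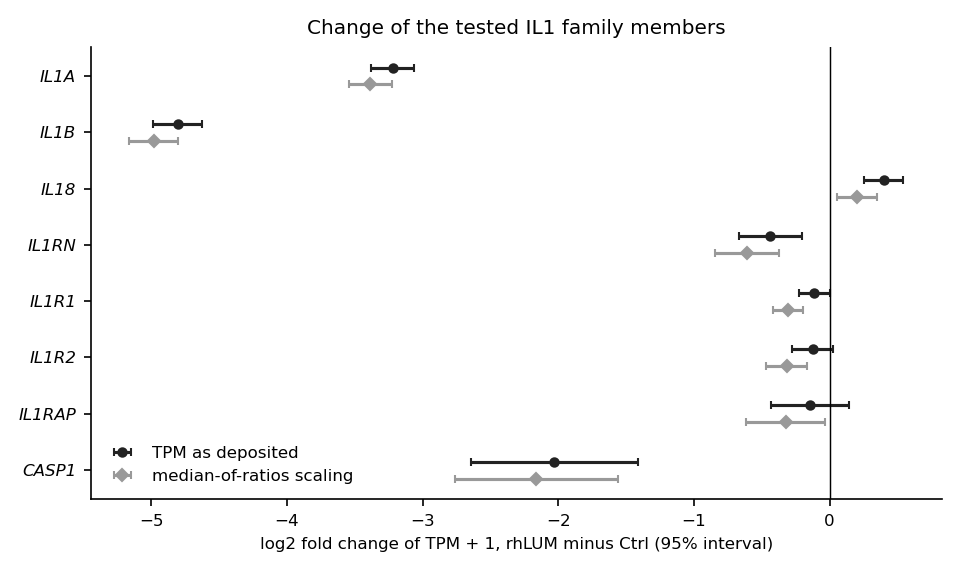
Log2 fold change of TPM + 1, rhLUM minus Ctrl (horizontal axis), for the 8 tested members with 95% intervals from limma, black circles for TPM as deposited and grey diamonds after median-of-ratios scaling. IL1B, IL1A and CASP1 lie far below 0 under both, IL18 lies above 0, and the intervals of IL1R1, IL1R2 and IL1RAP leave 0 only after scaling.

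The ligand genes of the family sit together on chromosome 2, where 9 protein-coding genes run from IL1A to IL1RN over 360102 bases, with IL1B second. Of these, 4 passed the filter (IL1A, IL1B, IL36G and IL1RN) and all 4 fell, beside 22.3% of all genes tested. IL1A, IL1B and IL1RN are members already counted above. IL36G passed the filter only through its Ctrl values, so its fall is no separate support. IL36G, an epithelial ligand of the IL36 receptor, went from 3.52 ± 0.26 to 0.47 ± 0.21 TPM (SD, n = 3), a log2 fold change of -1.63 (limma adjusted p = 7.46e-05). IL36B, another IL36 receptor ligand, and IL37, a ligand that dampens inflammation, were under the filter. They are named here after their values were seen. IL36B was at 1.52, 1.64 and 1.51 TPM in Ctrl and 0.15, 0.44 and 0 TPM in rhLUM, and IL37 at 0.73, 0.53 and 0.71 TPM and 0.22, 0.32 and 0.14 TPM. Both were lower in every rhLUM library than in any Ctrl library. IL36A and IL1F10 were listed at 0 in all 6 libraries, and IL36RN, the IL36 antagonist, at no more than 0.2 TPM.

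The receptor genes form another group on chromosome 2, 6 protein-coding genes from IL1R2 to IL18RAP over 460722 bases. Here IL1RL2, the receptor for the IL36 ligands, rose. It was at 3.13, 3.43 and 3.21 TPM in Ctrl and 9.82, 10.26 and 9.54 TPM in rhLUM, a log2 fold change of 1.35 (SE 0.07, limma adjusted p = 3.86e-06). Its ligand transcript IL36G fell while the receptor transcript was 3.03-fold higher. IL18R1, which binds IL18, was at 2.47, 2.64 and 2.51 TPM in Ctrl and 2.07, 2.28 and 4.17 TPM in rhLUM, where library C stood apart (log2 fold change 0.08, 95% interval -0.40 to 0.56, limma adjusted p = 0.753). The sign of IL18R1 turned to -0.16 without rhLUM C and to -0.07 after median-of-ratios scaling. IL18RAP, its partner chain, and IL1RL1, the IL33 receptor, were at no more than 0.04 and 0.17 TPM.

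**Figure D4:**
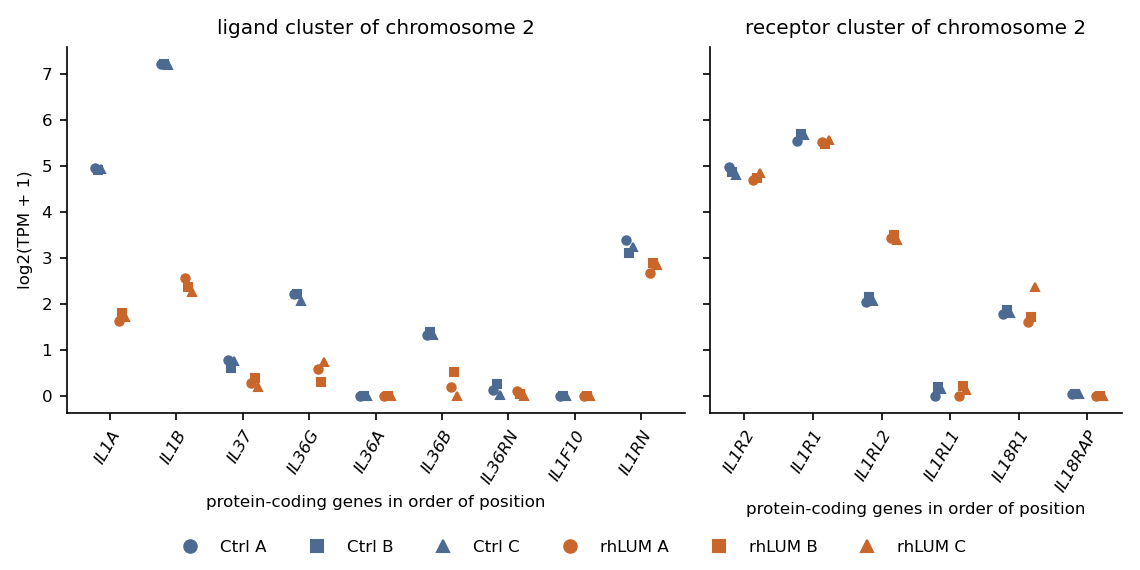
Log2(TPM + 1) in each library (vertical axis) for the protein-coding genes of the ligand and receptor clusters of chromosome 2, placed in order of position and not to scale. Among the ligands, IL1A, IL1B and IL36G drop from Ctrl (blue) to rhLUM (orange), and among the receptors IL1RL2 stands higher in rhLUM.

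Outside these clusters, SIGIRR, a receptor that restrains IL1 signalling, fell from 36.7 ± 5.75 to 24.8 ± 2.52 TPM (SD, n = 3), a log2 fold change of -0.54 (limma adjusted p = 0.00499). IL18BP, the soluble trap for IL18, was at 2.90 ± 0.68 and 2.92 ± 0.10 TPM (SD, n = 3), with a log2 fold change of 0.02 (95% interval -0.31 to 0.35, limma adjusted p = 0.891). The quotient of IL18 to IL18BP was 12.8, 9.24 and 14.0 in Ctrl and 15.2, 16.9 and 13.96 in rhLUM. These quotients overlapped slightly between the groups, although on the scale of TPM + 1 they did not (change 0.38, exact permutation p = 0.1, adjusted p = 0.125 over 5 ratios). Without Ctrl B, the lowest quotient, the change was 0.24. IL1RAPL2 had a log2 fold change of -0.01 (95% interval -0.36 to 0.34, limma adjusted p = 0.951).

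Of 25 genes of the inflammasome and of ligand processing, 16 were tested, 9 fell and 3 rose, with a median log2 fold change of -0.23. Beside these, 22.3% of all genes tested were lower and 44.5% higher, with a median of 0.16. AIM2, a sensor of cytosolic DNA, was at 2.29, 2.39 and 2.23 TPM in Ctrl and at 0.05, 0.09 and 0 TPM in rhLUM (limma adjusted p = 6.48e-05). It passed the filter only through its Ctrl values. PYCARD, the adaptor that links sensors to CASP1, fell from 61.9 ± 5.0 to 38.3 ± 1.83 TPM (SD, n = 3), a log2 fold change of -0.68 (limma adjusted p = 7.96e-05). CARD16, which inhibits CASP1 and shares sequence with it, changed by -1.21, and NAIP, a sensor of bacterial proteins, by -0.95. NLRP3, the sensor most often tied to IL1B, was listed at 0 in every library. Its partner NEK7 rose from 18.5 ± 0.61 to 38.3 ± 1.23 TPM (SD, n = 3), a log2 fold change of 1.01 (limma adjusted p = 1.99e-06). CAPN2, a calpain and thus of the protease family that cuts the IL1A precursor, rose by 0.52 on the log2 scale (limma adjusted p = 1.96e-06). CAPN1, another calpain, rose by 0.20 (limma adjusted p = 0.0213), a call lost after median-of-ratios scaling, when it was 0.0059, and turned to -0.03 by upper quartile scaling. CAPNS1, the small subunit they share, named after its value was seen, was not called (0.03, limma adjusted p = 0.361) and was lower after median-of-ratios scaling (-0.16, limma adjusted p = 0.00185). The CAPN1 call was lost too without Ctrl A, Ctrl B, rhLUM A or rhLUM B (limma adjusted p up to 0.0638).

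Of 24 genes that carry the signal from the receptor, 23 were tested, 17 rose and 2 fell, with a median of 0.42. The IRAK1 kinase went from 141.9 ± 2.75 to 195.1 ± 3.92 TPM (SD, n = 3), a log2 fold change of 0.46 (limma adjusted p = 6.80e-06). The ubiquitin-conjugating pair UBE2V1 and UBE2N rose by 0.70 and 0.40, and CHUK, MAP2K4 and TAB2 by 0.80, 0.67 and 0.52. Those that fell were MAP2K6 (-0.74), a kinase upstream of p38, and PELI1 (-0.32), a ubiquitin ligase. The counts became 17 higher and 4 lower under median-of-ratios scaling, beside 32.5% higher and 32.6% lower over all genes tested. The adaptor MYD88, named after its value was seen, was at 20.7 ± 0.83 and 21.1 ± 0.68 TPM (SD, n = 3), with a 95% interval of -0.090 to 0.15 around a log2 fold change of 0.03. That scaling put MYD88 at -0.16 and called it lower (limma adjusted p = 0.0276).

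The NF-kB subunits, to which the pathway leads and which act on IL1B itself, moved both ways. REL (0.97) and NFKB1 (0.58) rose, while RELB (-0.67) and NFKB2 (-0.23) fell. RELA, the main activating subunit, stood at 42.6 ± 2.63 and 42.8 ± 2.34 TPM (SD, n = 3), and after median-of-ratios scaling it was called lower at -0.19 (limma adjusted p = 0.0278).

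Of 28 genes known to be induced by IL1, 26 were tested, 25 fell and 0 rose, with a median of -2.26. The share of all genes tested that were lower was 22.3%, and their median was 0.16. Where all 6 libraries had to reach 1 TPM, 20 of the list were lower. The list was written with earlier results of these data known, so its direction is not independent evidence. CXCL2, BIRC3 and SOD2, a chemokine, an inhibitor of apoptosis and a mitochondrial superoxide dismutase, changed by -4.52, -2.45 and -2.05. CXCL1, LCN2 and CCL20 changed by -5.07, -5.10 and -4.16. The exception was PTGES, a prostaglandin synthase, at 2.22 ± 0.17 and 2.28 ± 0.35 TPM (SD, n = 3), a log2 fold change of 0.02 (limma adjusted p = 0.884).

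**Figure D5:**
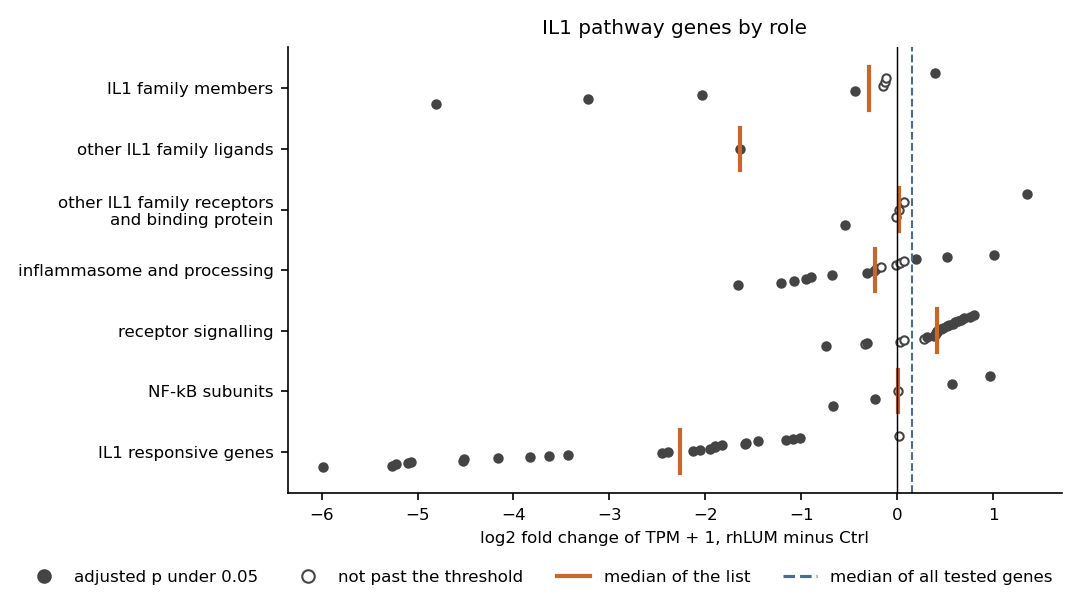
Log2 fold change of TPM + 1, rhLUM minus Ctrl (horizontal axis), of each tested gene by role, with filled points past an adjusted p of 0.05, open points not past it, an orange bar at each list's median and a dashed line at the median of all tested genes. IL1 responsive genes lie to the left with a median of -2.26, and receptor signalling genes mostly to the right with a median of 0.42. All tested IL1 family members but IL18 have negative values, over a wide range.

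Across the 6 libraries the genes whose pattern lay closest to that of IL1B, by Euclidean distance between log2(TPM + 1) profiles after taking off each gene's mean, were HP (0.33), DEFB4A (0.35) and CXCL2 (0.36). HP encodes haptoglobin, DEFB4A a defensin listed at 0 in all 3 rhLUM libraries, and both have near-identical relatives. Closest to IL18 were CTNNA1 (0.065), ERCC2 (0.068) and MAEA (0.074). With 2 groups of 3 libraries such likeness follows mostly from the size of the change between groups.

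The libraries carried the tumour line's epithelial transcripts, and most of those tested rose while most called members fell. Of 10 such markers 9 were tested, 6 rose and 2 fell, beside 44.5% higher and 22.3% lower over all genes tested. The sum of the 10 was 2862 to 2892 TPM in Ctrl and 4931 to 4966 TPM in rhLUM. The keratin KRT8 went from 1060.3 to 2474 TPM and ALB, albumin, from 289 to 825 TPM, while SERPINA1, an acute-phase protease inhibitor, fell from 379 to 208 TPM. Their part in the members' changes was not tested. KRT18, another keratin of simple epithelia, was at no less than 891 TPM in any library, although the epithelial marker EPCAM was at no more than 2.31 TPM. Monocytes and macrophages are common sources of IL1B. Of 13 of their markers 3 were tested, CD68 rising (0.77) while ITGAM (-0.92) and ITGAX (-0.89) fell with IL1B and CASP1. ITGAX passed the filter only through its Ctrl values. The part of those cells in the falls was not tested. The summed level of the 13 was 44.9 to 47.3 TPM in Ctrl and 62.4 to 65.7 TPM in rhLUM, and without CD68 it was 11.9 to 12.8 TPM and 5.75 to 6.87 TPM. The defining PTPRC was at no more than 0.23 TPM in any library, and LST1 and MARCO were at 0 in all 6. Of 9 neutrophil markers none passed the filter, 4 were at 0 in all 6 libraries, and their sum was 1.78 to 2.7 TPM in Ctrl and 0.08 to 0.37 TPM in rhLUM. Of 8 lymphocyte markers CD3D and CD79A rose (sum 0.71 to 1.43 and 2.68 to 4.53 TPM). Both passed the filter only through their rhLUM values. The 6 endothelial markers summed to 21.6 to 23.0 TPM in Ctrl and 26.9 to 31.8 TPM in rhLUM. That rise was mainly PECAM1, which went from 16.4 to 25.3 TPM (limma adjusted p = 2.55e-04), and without it the sum was 5.43 to 6.26 TPM in Ctrl and 3.70 to 3.94 TPM in rhLUM. KDR went the same way as PECAM1, from 2.72 to 3.36 TPM without overlap of the groups, but was not called (log2 fold change 0.23, limma adjusted p = 0.0561). CDH5, a defining adhesion gene of endothelium, fell with IL1A and IL1B, from 3.10 to 0.45 TPM (limma adjusted p = 6.00e-05), and its part in their falls was not tested. CDH5 passed the filter only through its Ctrl values. The 8 fibroblast markers summed to 14.4 to 15.4 TPM in Ctrl and 10.0 to 13.7 TPM in rhLUM. In them DCN fell from 7.96 to 1.26 TPM (log2 fold change -1.99, limma adjusted p = 8.20e-06) while COL1A1 rose from 3.30 to 5.11 TPM (0.51, limma adjusted p = 0.0272). Whether host reads were removed is not stated, and their part was not tested.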

How the data were processed

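Xenograft RNA was selected for poly-A tails, prepared with a KAPA mRNA HyperPrep kit and read in pairs (Illumina NovaSeq), per the labels' protocols. The submitters' processing notes name the tools STAR 2.7.8 and RSEM 1.2.31 and the build GRCh38. Annotation release, strand setting and removal of host reads: not given in the sources used here. The authors' deposited tables, 1 per library, hold TPM per the file headers. Rows sharing a symbol (2210) were left out. GSDME was matched by its older symbol DFNA5.

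The values, as log2(TPM + 1), of the 14781 genes whose mean reached 1 TPM were fitted by group alone in limma 3.58.1 (R 4.3.3), using a variance trend. Tests were two-sided and p-values adjusted by Benjamini-Hochberg over all genes tested. The fit was tested on simulated data. Ratios used an exact permutation test over libraries.

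The members and lists were chosen with earlier results of these data known. Named genes were the 9 members and, of each other list, the tested IL1 family genes, up to 6 genes with the smallest p past the threshold and any that passed against the list's majority. Others, named after their values were seen, are GSDME and those said to be so, with PTGES, RELA, NLRP3, CARD17, IL36A, IL36RN, IL1F10, IL18RAP, IL1RL1 and the cell markers. The alternatives were 3 scalings, 2 filters, a pseudocount of 0.1, summed symbols, no trend, a replicate block, each library left out, and CASP1 with its near copies.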

Additional observations from a re-analysis of the deposited data

How the results depend on the processing

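IL1A, IL1B, IL1RN and CASP1 stayed lower and past the threshold in every alternative that tested them (CASP1 was not tested where all 6 libraries had to reach 1 TPM), with log2 fold changes of -3.64 to -3.18, -5.07 to -4.74, -0.65 to -0.37 and -2.88 to -1.56. Upper quartile scaling left no member higher and 7 lower. It put IL18 at 0.16, not called, and IL1R1 at -0.35, IL1R2 at -0.36 and IL1RAP at -0.36, all called lower. Over all 14828 genes tested under it, 4482 were higher and 5195 lower. Median-of-ratios scaling put IL1R1 at -0.31 and IL1R2 at -0.32, both now past the threshold. It gave 6 members lower, beside 32.6% of all genes tested. Rescaling without mitochondrial genes put IL1R1 and IL1R2 at -0.23 and -0.24, also past the threshold. Leaving out each library gave -0.16 to -0.085 for IL1R1, -0.17 to -0.077 for IL1R2, -0.27 to -0.039 for IL1RAP, 0.24 to 0.47 for the log2 ratio of IL18 to IL18BP and -0.079 to 0.063 for the log2 ratio of IL1R1 to IL1R2. Of the other pathway genes, 76 were tested as deposited, 23 higher and 40 lower, beside 44.5% and 22.3% of all genes. Over the alternatives 20 to 23 were higher and 33 to 47 lower. The counts over all genes moved too. The 47 came with upper quartile scaling, when 5195 of all 14828 genes tested were lower. The 33 came where all 6 libraries had to reach 1 TPM, when 2877 of 12945 were lower. The number of other family ligands called lower, 1 as deposited (IL36G), was 0 under that same filter, 3 with no filter and 2 on rescaling without mitochondrial genes or leaving out rhLUM A or C. Median-of-ratios scaling also turned the sign of IL18BP (-0.12) and PTGES (-0.11), neither called. Receptor signalling genes called lower went from 2 to 4 with median-of-ratios or upper quartile scaling.

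With the replicate block (letters A, B and C as a term) no member's call changed, and IL1B stood at -4.80 (limma adjusted p = 5.30e-06). Over all genes 6429 were higher and 3219 lower, against 6571 and 3299. Deviations of same-lettered libraries correlated at 0.029, -0.023 and 0.084, and not every library correlated best with its own letter. The letters thus showed no clear pairing, but 3 libraries per group are too few to settle whether they share a source. Depth is unknown, so no counting interval can be given for the low values of IL33, CASP1 or IL36B.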

Other observations

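Neutrophil proteases that can cut IL1 family precursors outside the cell were near 0. CTSG, ELANE and PRTN3 were at no more than 0.14, 0.06 and 0.5 TPM in any library. CASP4, a caspase of the pathway that senses lipopolysaccharide inside cells, was the most abundant of the inflammatory caspases and fell from 86.5 ± 5.08 to 74.4 ± 1.38 TPM (SD, n = 3), a log2 fold change of -0.21 (limma adjusted p = 0.00508), while CASP5 was listed at 0 in 5 of 6 libraries. The pore-forming gasdermins GSDMD and GSDME, which act downstream of caspases, changed by -0.31 and -0.24 (limma adjusted p = 0.00586 and 0.00598). These genes were picked after their values were seen.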
